A study of Mus musculus with 26 samples.

Results

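In microglia of the medial prefrontal cortex (mPFC) of TLR-DKO mice, gene expression after R-SDS was compared with that after cage transfer (naive). R-SDS stands for repeated social defeat stress, exposure to an aggressor mouse over several sessions. The comparison rests on 7 of the 26 arrays of the series, chosen by their titles: 3 of R-SDS samples and 4 of naive samples. All of these mice had the genotype TLR-DKO; CX3CR1EGFP/+ on a C57BL/6 strain, and the stressed ones are labelled resilient. TLR-DKO is known from the study as a double knockout of the Toll-like receptor genes Tlr2 and Tlr4; the mutation is not restricted to microglia in the labels, and CX3CR1EGFP/+ marks cells by green fluorescence in place of 1 Cx3cr1 copy. The other arrays used below come from TLR-DKO nucleus accumbens (NAc; 4 R-SDS, 3 naive), wild-type CX3CR1EGFP/+ mPFC (3 R-SDS, labelled susceptible, and 3 naive) and wild-type CX3CR1EGFP/+ NAc (3 R-SDS, labelled susceptible, and 3 naive). EGFP-positive cells were sorted 1.5 hours after the last session, from 1.5 mm punches of 3 to 6 pooled mice per sample, and 500 pg of RNA was amplified for each single-colour array.

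Microglia are the resident macrophages of the brain. Toll-like receptors on their surface detect microbial products and molecules released by damaged cells, and signal through MyD88 and NF-kappaB to cytokine genes. Stress hormones act on the same cells through the glucocorticoid receptor, and brief stimulation of macrophages switches on immediate early genes such as Fos and Egr1. Lysosomal proteases, lysozymes and MHC class II proteins carry out the breakdown of engulfed material and its display to T cells.

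Levels are log2 signals from which the 75th percentile of the array's log2 signals was subtracted, so that a level of 0 is the brightness of that percentile on the array. Differences are R-SDS minus naive on this scale, with the standard error (SE) of the fit. The 75th percentile lay between 137 and 247 units on the R-SDS arrays and between 186 and 222 units on the naive arrays. Between 52.6% and 63.0% of spots were well above background on the R-SDS arrays, against 55.2% to 60.1% on the naive arrays. Arrays of the same group correlated across genes with Pearson r between 0.81 and 0.90, and arrays of different groups with r between 0.81 and 0.89. Naive replicate 1 stood apart: it lay at -173 on the first principal component, which held 28.9% of the variance, while the other 6 arrays lay between -31.1 and 57.0. Values without that array are also given for many lists and genes. A gene or list shown without such a value can still depend on that array. The arrays lay on 2 slides scanned on different days, the first with R-SDS replicates 1 and 2 and naive replicate 1, the second with R-SDS replicate 3 and naive replicates 2, 3 and 4.

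The cells carried the microglial profile that the labels give. All 26 homeostatic microglia genes were well above background on all 7 arrays, led by Cx3cr1, the fractalkine receptor, at levels of 8.23 to 8.27 in R-SDS arrays and 8.53 to 8.69 in naive arrays. The Tlr2 probe stood within background on all 7 arrays, at levels of -4.23 to -3.63 in R-SDS arrays and -3.95 to -3.57 in naive arrays; the 6 wild-type mPFC arrays lay between 1.21 and 2.68. The Tlr4 probe stood well above background on all 7 arrays, at 1.43 to 2.61 in R-SDS arrays and 1.65 to 3.86 in naive arrays, beside the 1.60 to 2.81 of wild-type mPFC arrays. Whether that probe lies in the deleted part of Tlr4 was not tested, so it checks nothing about the genotype. Among markers of other cells, Ms4a1 of B cells, Cd3d and Cd3g of T cells, S100a8 and S100a9 of neutrophils and Ttr of the choroid plexus were well above background on none of the 7 arrays. Other markers were well above background on all 7, namely 4 of 10 for B cells and 8 of 15 for T and NK cells. For neutrophils it was 3 of 11, for choroid plexus and ependyma 2 of 8 and for monocytes and dendritic cells 5 of 18. For oligodendrocytes and precursors it was 10 of 15, for astrocytes 8 of 15, for neurons 7 of 20 and for endothelial and mural cells 5 of 16. The share of such cells in the samples was not tested.

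No gene passed an adjusted p of 0.05 in limma with Benjamini-Hochberg adjustment over 24738 genes (0 genes, 0%). The smallest adjusted p was 0.258, and 0.151 with slide as a block, which also called 0 genes. At an unadjusted p under 0.05, 1255 genes were counted, or 5.07% of the genes tested; of the measured genes defined below, 2.34% were counted in the higher and 2.89% in the lower direction. The differences below are therefore differences of these arrays, none of them significant across the genome. Among the 22559 genes well above background on 3 arrays of a side, called measured here, 55.4% had a difference below 0 and 44.6% above 0, with a median of -0.07. In 4.43% of measured genes all 3 R-SDS arrays lay below all 4 naive arrays, and in 2.19% they lay above them.

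The sequences of promoters referred to below come from the RefSeq table of build GRCm38.p6, which is not the mm9 build named in the array files, and they run 5′ to 3′ on the strand of the gene. The MHC class II genes H2-Aa (17, minus strand, chr17:34287847-34287917) and H2-Eb1 (17, plus strand, chr17:34305786-34305845) are shown for a lower mean in R-SDS arrays. The groups overlapped for both genes. Cirbp (10, plus strand, chr10:80167638-80167697) and Noct (3, plus strand, chr3:51224377-51224436) are shown as the lower gene with the smallest p and a higher gene whose groups lay far apart. Capitals mark TGATTGG or its reverse complement CCAATCA, the inverted CCAAT box, and, in H2-Aa, also TGACGTCA, the cyclic AMP response element, which is its own reverse complement.
H2-Aa: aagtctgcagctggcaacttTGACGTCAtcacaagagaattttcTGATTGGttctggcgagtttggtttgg
H2-Eb1: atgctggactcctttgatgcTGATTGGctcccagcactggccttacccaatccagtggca
Cirbp: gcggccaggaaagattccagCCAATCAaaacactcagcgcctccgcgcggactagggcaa
Noct: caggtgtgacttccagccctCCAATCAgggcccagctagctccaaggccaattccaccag
Searched on both strands, TGATTGG occurred in the 250 bases before the start of 7.23% of 32851 promoters and TGACGTCA in 1.546% of them. The 2 motifs do not overlap. Only promoters that held TGATTGG on either strand are shown, so their matches cannot be set against that share. The promoters of Lyz1, Lyz2, Rnase6, Apoe, Axl, Cdc73, Mrpl35 and Praf2, and promoter 2 of Cirbp, were searched too and held neither motif. H2-Ab1, Rbm3, Gpcpd1 and Fpgt had no promoter to search. These matches describe letters and not binding.

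The genes with the smallest p in the higher direction were mostly dim ones that left the background only in R-SDS arrays. Gpcpd1, which breaks down glycerophosphocholine, had levels of -0.85, -2.34 and -1.06 in R-SDS arrays, against -5.87, -4.16, -4.30 and -5.50 in naive arrays. It was well above background on 3 of 3 R-SDS arrays and 0 of 4 naive arrays, so its difference of 3.54 ± 0.61 (SE; adjusted p = 0.258) is read as at least 4.68-fold. Such a bound sets the R-SDS mean against the higher of the lowest signal well above background on each naive array and the signal of the gene itself.

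Noct, a circadian phosphatase of NADPH that was first described as a deadenylase, lay evenly in both groups. Its levels were -1.34, -1.38 and -0.74 in R-SDS arrays, against -6.02, -5.92, -5.86 and -5.70 in naive arrays. It was at least 5.62-fold higher in R-SDS arrays (difference 4.72 ± 1.15; adjusted p = 0.574). All 4 naive levels lay within background, so their small spread is not a spread of Noct RNA. In the other groups Noct was well above background on 2 of 3 R-SDS arrays and 1 of 3 naive arrays of wild-type mPFC, on 2 of 4 and 0 of 3 of TLR-DKO NAc, and on 3 of 3 and 1 of 3 of wild-type NAc.

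Fpgt, a guanylyltransferase of fucose salvage, had levels of -1.002, -1.18 and -0.86 in R-SDS arrays, against -4.58, -3.61, -4.15 and -4.13 in naive arrays. This is at least 6.07-fold higher in R-SDS arrays. In wild-type mPFC the Fpgt difference was -1.40, and the difference between the 2 stress effects was 4.51 with an adjusted p of 0.603. Cdc73, a subunit of the PAF1 transcription elongation complex, was at least 13.4-fold higher, Praf2, a membrane protein of the secretory pathway, at least 9.05-fold, Mrpl35, a protein of the mitochondrial ribosome, at least 5.53-fold and Adhfe1, an alcohol dehydrogenase of mitochondria, at least 2.92-fold. These 7 genes were well above background on no naive array, and they could be counted as measured only through their R-SDS arrays. Their bounds use the R-SDS mean, and single arrays were uneven. R-SDS levels ran from -2.15 to 1.32 for Cdc73 and from -2.33 to -0.01 for Mrpl35.

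Among the higher genes seen on both sides, Vdac3, a channel of the outer mitochondrial membrane, had levels of 3.27, 3.74 and 2.16 in R-SDS arrays, against 1.97, -0.43, 1.46 and 0.27 in naive arrays (difference 2.24 ± 0.54; adjusted p = 0.574). Pdxk, the kinase that activates vitamin B6, had 3.23, 2.91 and 2.88 in R-SDS arrays, against 1.35, 1.08, 1.99 and 2.38 in naive arrays, although its other probes differed by -0.42 and 0.48. Both sets of arrays were separate for the probe used. Alg11, a mannosyltransferase of N-glycan assembly, differed by 2.43, Zfp639, a zinc finger protein, by 2.06 and Dcaf17, a substrate receptor of a ubiquitin ligase, by 4.42, with adjusted p of 0.593, 0.574 and 0.574. Dcaf17 was well above background on only 2 of the 4 naive arrays, and its second probe differed by -0.71. For Vdac3, Pdxk, Alg11, Zfp639 and Dcaf17 alike, naive TLR-DKO mPFC had the lowest mean of the 8 groups. Only for Zfp639 and Dcaf17 was the R-SDS mean of TLR-DKO mPFC the highest. The Vdac3 means were 0.82 in naive and 3.06 in R-SDS arrays, beside 2.75 and 3.48 in wild-type mPFC.

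**Figure D1:**
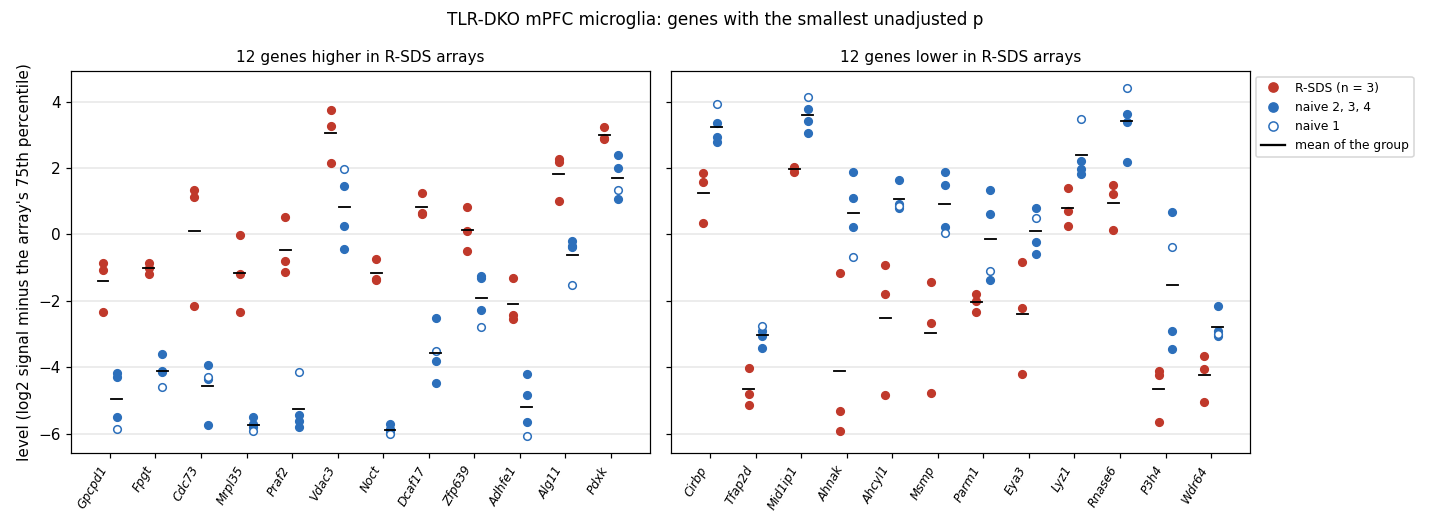
Levels (log2 signal, relative to the 75th percentile of its array) of the 12 higher genes (left panel) and 12 lower genes (right panel) with the smallest unadjusted p among named genes whose arrays do not overlap; red points are the 3 R-SDS arrays, blue points naive replicates 2, 3 and 4, open points naive replicate 1, and bars group means. Gpcpd1 is at -2.34 or above on R-SDS arrays and at -4.16 or below on naive arrays, Fpgt at -1.18 or above and at -3.61 or below, and Cirbp at 1.86 or below and at 2.79 or above.

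In the lower direction the gene with the smallest p was Cirbp, the cold-inducible RNA-binding protein, which rises when cells cool and follows daily body temperature. Its levels were 1.57, 1.86 and 0.35 in R-SDS arrays, against 3.93, 2.79, 3.35 and 2.92 in naive arrays. The difference was -1.99 ± 0.38 (adjusted p = 0.275), which corresponds to a signal 3.97-fold lower in R-SDS arrays. It was -2.21 within the first slide and -2.67 within the second, and -1.76 without naive replicate 1.

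Cirbp gave other values in other groups. Its mean level was 1.29 ± 0.26 in R-SDS arrays of TLR-DKO NAc (SD, n = 4), against 2.27 ± 0.17 in naive arrays (SD, n = 3). In wild-type NAc it was 0.71 ± 0.50 in R-SDS arrays and 2.64 ± 0.33 in naive arrays (SD, n = 3 each). In wild-type mPFC it was 2.67 ± 0.51 in R-SDS arrays and 2.34 ± 0.42 in naive arrays (SD, n = 3 each). R-SDS arrays thus lay below naive arrays in TLR-DKO mPFC and in both NAc comparisons, and overlapped with them in wild-type mPFC. The stress effect in TLR-DKO mPFC differed from that in wild-type mPFC by -2.32 ± 0.55, with an adjusted p of 0.81.

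The list of cold-inducible and temperature-sensitive RNA binders did not follow Cirbp. Of its 17 members, all measured, 12 had a difference above 0 and 5 below 0, and without naive replicate 1 it was 9 and 8. Rbm3, the other classic cold-shock protein, had levels of 3.49, 5.16 and 4.34 in R-SDS arrays, against 5.78, 5.23, 5.41 and 3.98 in naive arrays, and the groups overlapped. Its difference of -0.77 had the direction of Cirbp, and ran from -1.46 to -0.14 over the alternatives. The Rbm3 mean was also lower in R-SDS arrays than in naive arrays in wild-type mPFC and in both NAc comparisons. Clk1, a kinase of splicing factors, differed by 1.19 ± 0.47 and Srsf7, a splicing factor, by 0.99 ± 0.49, both with overlapping arrays. Clk1 was at 0.62 without naive replicate 1 and Srsf7 at 0.53 without R-SDS replicate 3.

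Other genes in the lower direction had diverse roles. Mid1ip1, an activator of acetyl-CoA carboxylase in fat synthesis, had levels of 2.03, 1.99 and 1.88 in R-SDS arrays, against 4.14, 3.40, 3.77 and 3.04 in naive arrays (difference -1.62 ± 0.36; adjusted p = 0.385). Its 3 R-SDS arrays lay close together, all below the lowest naive array. Ahnak, a giant scaffold protein, differed by -4.77, Ahcyl1, a regulator of the inositol trisphosphate receptor, by -3.57, Eya3, a phosphatase and transcription cofactor, by -2.52 and Msmp by -3.87. These 4 genes were not well above background on 1 or 2 of the R-SDS arrays, and were well above it on all 4 naive arrays. Tfap2d, P3h4 and Wdr64 were well above background on no R-SDS array, at bounds of at least 1.48-fold, 4.23-fold and 1.76-fold lower. Parm1 differed by -1.91 with separate arrays. For Msmp and Parm1, TLR-DKO mPFC held the highest mean of the 8 groups in naive arrays and the lowest in R-SDS arrays.

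**Figure D2:**
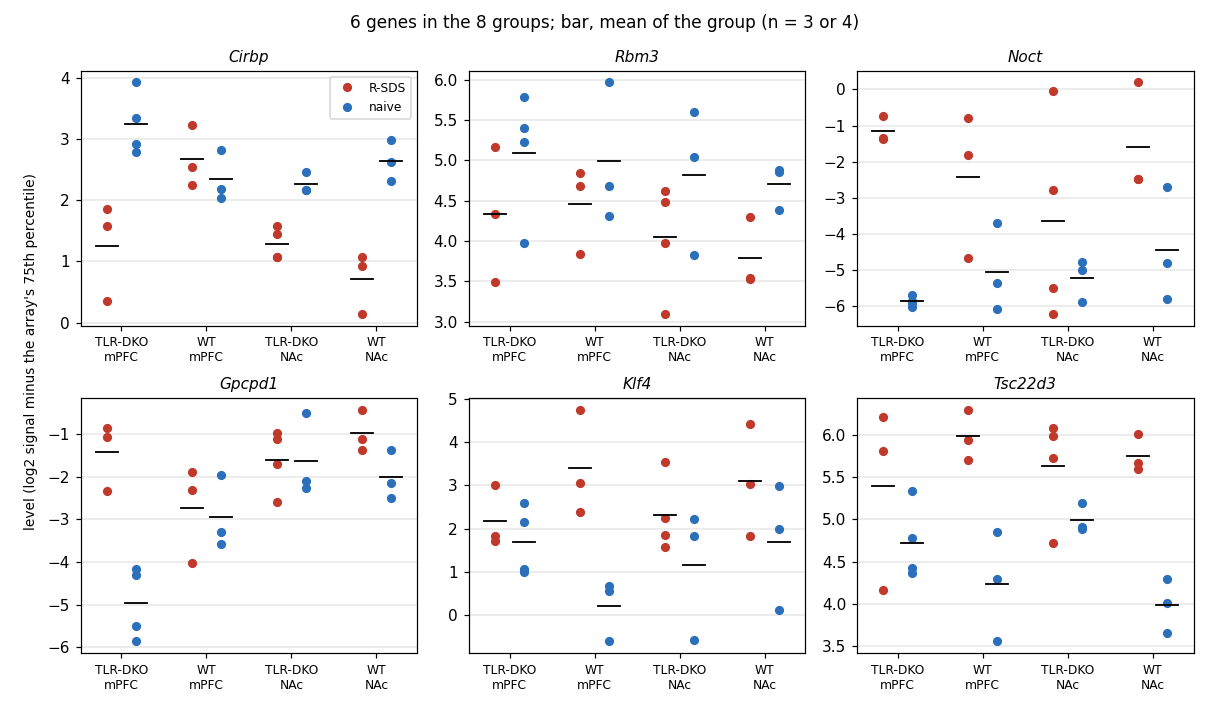
Levels (log2 signal, relative to the 75th percentile of its array) of Cirbp, Rbm3, Noct, Gpcpd1, Klf4 and Tsc22d3 in all 26 arrays; red points are R-SDS arrays, blue points naive arrays and bars group means of 3 or 4 arrays. Cirbp is low in R-SDS arrays of TLR-DKO mPFC (mean 1.26) and of both NAc groups but not of wild-type mPFC (mean 2.67), and Gpcpd1 in naive TLR-DKO mPFC (mean -4.96) is the lowest of the 8 groups.

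On the arrays of the other stress comparisons, these 24 genes gave mixed directions. Of the 12 higher genes, 6 were also higher in wild-type mPFC, 9 in TLR-DKO NAc and 10 in wild-type NAc, where 63.1%, 47% and 55.7% of measured genes were higher. Of the 12 lower genes, 8, 7 and 8 were also lower, where 36.9%, 53% and 44.3% of measured genes were. Among genes well above background on all 7 arrays, the largest separate differences were higher for Vps37c (2.60) of the ESCRT sorting machinery, Ethe1 (2.85), a sulfur dioxygenase, Mrpl58 (2.78), a peptide release factor of mitochondria, Ifnar1 (2.79), a chain of the type I interferon receptor, and Kdm6b (2.63), a histone demethylase. They were lower for Ctnnbl1 (-3.10), a splicing-associated protein, Zfp866 (-2.86), Ppcs (-3.07), an enzyme of coenzyme A synthesis, Toe1 (-3.06), a deadenylase of small nuclear RNA, and F13a1 (-3.42), the coagulation factor XIII chain of tissue macrophages. Adjusted p for these 10 lay between 0.89 and 0.969. Without naive replicate 1 the Kdm6b difference was 1.43, that of Ppcs -2.40 and that of Toe1 -2.31. The other probes of Ifnar1 differed by -0.09 and 0.78. For Mrpl58, naive TLR-DKO mPFC had the lowest mean of the 8 groups, and the R-SDS mean ranked 5.

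Lysosomal genes made up the list with the largest share of separate arrays. Of 26 measured genes of 28, 23 had a difference below 0, with a median of -0.38, and for 9 of them all R-SDS arrays lay below all naive arrays. These 9 are 34.6% of the measured members, beside 4.43% of all measured genes and 7.98% of the 2256 brightest measured genes, among which are 73.1% of the measured members. The list was drawn up with earlier results of these data known. Its members Lyz1 and Rnase6 are also among the lower genes with the smallest p, so the share describes these arrays and tests nothing. Summed over members on the linear scale, the list stood at 1814 to 2154 times the 75th percentile in R-SDS arrays and at 2412 to 2598 in naive arrays. Without naive replicate 1, 21 members stayed below 0 and 12 had separate arrays, or 46.2% beside 7.85% of measured genes. The median was -0.47 within the first slide, -0.37 within the second and -0.29 with slide as a block.

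The secreted antimicrobial members were among those with the largest differences. Lyz1, a lysozyme that cuts bacterial cell walls, had levels of 0.25, 1.40 and 0.71 in R-SDS arrays, against 3.48, 1.82, 2.21 and 1.98 in naive arrays (difference -1.59 ± 0.43; adjusted p = 0.675). Lyz2, the main macrophage lysozyme and a near copy of Lyz1, had -0.51, -0.34 and -0.62 in R-SDS arrays, against 0.98, -0.18, 0.32 and 0.79 in naive arrays. Probes for such close copies can share target, so the pair is not independent. Rnase6, an antimicrobial ribonuclease, had 1.48, 0.13 and 1.22 in R-SDS arrays, against 4.40, 3.38, 2.18 and 3.64 in naive arrays (difference -2.46 ± 0.68; adjusted p = 0.675). For all 3 genes every R-SDS array lay below every naive array. Without naive replicate 1 the Lyz1 difference was -1.22 and that of Rnase6 -2.12. Rnase6 also differed by -2.98 in wild-type mPFC, while Lyz1 differed there by 0.94.

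Smaller differences were found in the core of the lysosome. Npc2, which binds cholesterol in the lysosome, had levels of 3.49, 3.77 and 3.49 in R-SDS arrays, against 4.50, 4.14, 4.08 and 4.00 in naive arrays (difference -0.60 ± 0.26; adjusted p = 0.939). The other 5 members with separate arrays were singled out after their values were seen. They were Lamp1 (-0.70), a membrane protein of the lysosome, Grn (-0.71), progranulin, Psap (-0.66), the precursor of saposins, Ctsa (-0.63), protective protein cathepsin A, and Ctsd (-0.37), the aspartyl protease cathepsin D. Ctsd had 7.76, 7.78 and 7.68 in R-SDS arrays, against 8.07, 8.07, 8.15 and 8.15 in naive arrays, a gap that was small and even. A second Ctsa probe differed by 1.26 and a second Ctsd probe by -0.21, so the Ctsa value depends on the probe. Differences of the whole list in the other comparisons had medians of 0.41 in wild-type mPFC and -0.17 in TLR-DKO NAc. The test of the difference from wild-type mPFC gave adjusted p of 0.81 or more for Lyz1, Lyz2, Npc2, Lamp1, Grn, Psap, Ctsa, Ctsd and Rnase6.

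**Figure D3:**
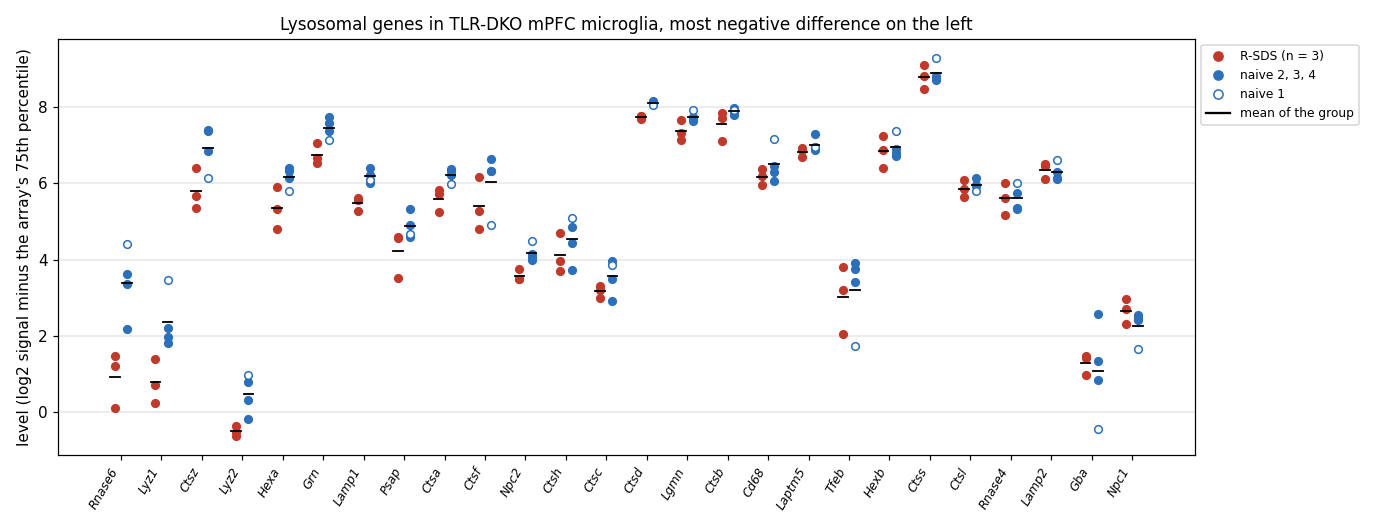
Levels (log2 signal, relative to the 75th percentile of its array) of the 26 measured lysosomal genes, ordered from the most negative difference; red points are the 3 R-SDS arrays, blue points naive replicates 2, 3 and 4, open points naive replicate 1, and bars group means. Rnase6, Lyz1, Lyz2, Grn, Lamp1, Psap, Ctsa, Npc2 and Ctsd have every red point below every blue or open point.

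The identity genes of microglia lay slightly lower as well. Of the 26 homeostatic genes, 23 had a difference below 0, with a median of -0.18 and separate arrays for 3 of them, beside 7.98% of the 2256 brightest measured genes; 84.6% of the members belong to those brightest genes, of which 62.3% had a difference below 0. Without naive replicate 1, 19 members were below 0 and the median was -0.10. Cx3cr1, whose arrays were separate, differed by -0.35 ± 0.32, Tmem119 by -0.18 ± 0.26, P2ry12, the ADP receptor that guides process movement, by -0.16 ± 0.31 and Sall1, a transcription factor of microglial identity, by -0.57 ± 0.27, which was -0.29 without R-SDS replicate 2. The P2ry12 value turned to 0.07 without naive replicate 1. The other 2 with separate arrays, named after their values were seen, were P2ry6 (-0.57), a UDP receptor, and P2ry13 (-0.27), an ADP receptor. Among lineage transcription factors, 14 of 22 lay below 0, with Maf at -0.51, Lyl1 at -1.67 and Hhex at -0.99 (-0.62 without R-SDS replicate 2). The median of that list was -0.09, or -0.37 without naive replicate 1.

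Disease-associated microglia genes, which rise in microglia around plaques and dying cells, had 17 of 21 measured members (of 26) below 0, with a median of -0.25, or 16 of 21 and -0.17 without naive replicate 1. Apoe, the main lipid carrier of the brain, had levels of 3.70, 4.28 and 5.84 in R-SDS arrays, against 6.87, 6.34, 7.44 and 6.64 in naive arrays (difference -2.21 ± 0.78; adjusted p = 0.919). Axl, a receptor for dying cells, had -2.92, -5.14 and -1.06 in R-SDS arrays, against 3.61, -0.96, 0.37 and 0.17 in naive arrays (difference -3.84 ± 1.24; adjusted p = 0.869). Both genes had separate arrays, but the lowest naive Axl level lay only just above the highest R-SDS level. Axl was well above background on only 2 of the 3 R-SDS arrays. Its difference was -7.64 within the first slide and -0.92 within the second. It was -2.90 without naive replicate 1 and -2.79 without R-SDS replicate 2. Apoe is also abundant in perivascular macrophages and astrocytes.

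Perivascular macrophages also carry Cx3cr1 and can enter an EGFP gate. Of 16 measured markers of 18, 14 had a difference below 0, beside 55.4% of measured genes, and 2 of 16 had separate arrays, beside 4.43%. The median of -0.93 leaned on single arrays: it was -0.23 without R-SDS replicate 3 and -0.44 without naive replicate 3. Relative to the naive means, the list stood at -0.23, -0.12 and -1.59 on the R-SDS arrays, and naive replicate 4, at -0.66, lay below R-SDS replicates 1 and 2. Their summed signal ran from 37.5 to 46.0 in R-SDS arrays and from 63.0 to 118 in naive arrays. F13a1 had levels of 1.19, -2.41 and 3.18 in R-SDS arrays, against 4.15, 3.91, 4.95 and 3.27 in naive arrays, and Clec4n, a C-type lectin receptor, had -0.43, -0.24 and -2.69, against 0.37, 0.03, 0.13 and 1.08. The F13a1 difference was -1.89 without R-SDS replicate 2, and the Clec4n difference of -1.52 was -0.73 without R-SDS replicate 3. The Dab2 difference of -1.81 was 0.13 without R-SDS replicate 3. Mrc1, the mannose receptor, and Dab2, an endocytic adaptor, overlapped between the groups, at 0.40, 0.43 and -1.63 for Mrc1 in R-SDS arrays against 0.76, 0.79, 1.67 and -0.78 in naive arrays. Clec12a was well above background on none of the 7 arrays. The part of these cells in the Apoe, MHC class II and lysosomal values was not tested, and fewer cells of a type and less RNA per cell cannot be told apart in such samples.

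MHC class II genes were spread widely between naive arrays. H2-Ab1, a chain of the I-A molecule, had levels of 0.47, 0.64 and -1.43 in R-SDS arrays, against 5.72, 3.59, -0.11 and 1.79 in naive arrays (difference -2.85 ± 1.12; adjusted p = 0.919). Cd74, the invariant chain, differed by -2.73 ± 1.1, H2-Eb1 by -2.17 ± 1.01 and H2-Aa by -2.55 ± 1.44. Naive replicate 1 was the highest array for each of these 4 genes, and without it the differences were -1.86, -1.87, -1.13 and -1.74. Within slides they were -5.17 and -3.18 for H2-Ab1 and -3.91 and -4.65 for Cd74. The groups overlapped for all 4. Of the whole list, all 15 members were measured, 9 lay below 0 and the median was -0.36; Ciita, the master activator of the class II promoters, differed by 0.11. The class II promoter sequences above belong to H2-Aa and H2-Eb1, whose lowest R-SDS levels, -4.5 and -3.04, were both on replicate 3. The lowest naive H2-Eb1 level was lower still, at -3.08. H2-Aa was well above background on only 2 of the 3 R-SDS arrays.

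**Figure D4:**
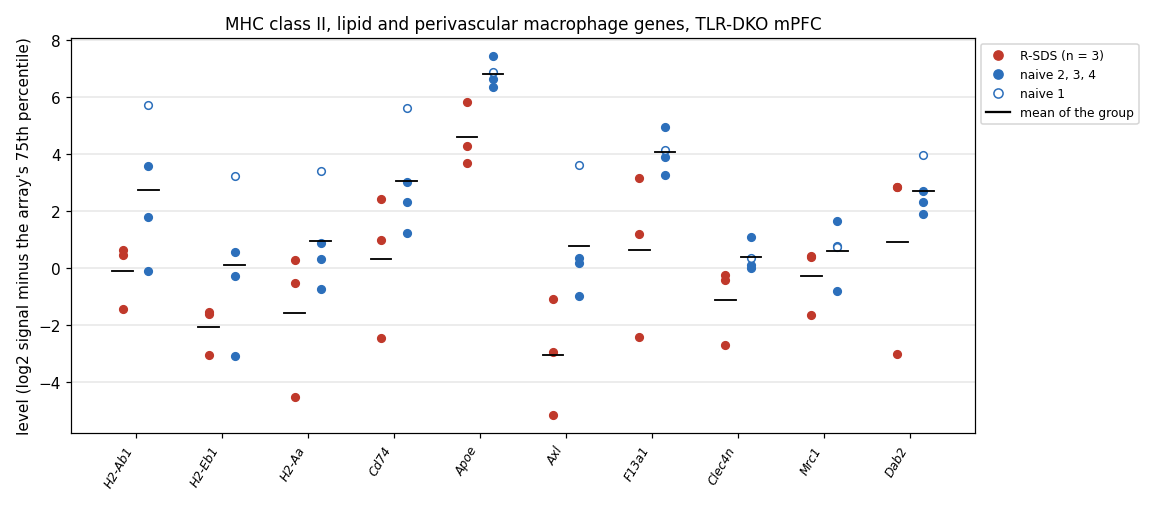
Levels (log2 signal, relative to the 75th percentile of its array) of 4 MHC class II pathway genes, Apoe, Axl and 4 perivascular macrophage markers; red points are the 3 R-SDS arrays, blue points naive replicates 2, 3 and 4, open points naive replicate 1, and bars group means. The open points are the highest for H2-Ab1 (5.72), H2-Eb1, H2-Aa, Cd74 (5.63), Axl and Dab2, and the Apoe groups do not overlap.

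Immediate early genes gave little that was steady across the naive arrays. Of 10 measured AP-1 factors of 12, 7 lay above 0 with a median of 0.34, but the median was -0.44 without naive replicate 1. Fosl2, an AP-1 subunit, shows this: its levels were 4.83, 4.56 and 5.42 in R-SDS arrays, against -3.16, 4.67, 4.45 and 2.95 in naive arrays, and its difference of 2.71 became 0.91 without that array. Fos had 4.83, 5.09 and 4.05 in R-SDS arrays, against 3.81, 4.56, 4.84 and 2.61 in naive arrays. Junb, another AP-1 subunit, differed by 0.74 ± 0.57, or 0.40 without R-SDS replicate 2. The Egr, Klf and Nr4a list had 14 of 18 measured members (of 23) above 0 with a median of 0.24, or -0.03 without naive replicate 1. Btg2, an antiproliferative early gene, had separate arrays, at 3.46, 3.54 and 2.93 in R-SDS arrays against 2.19, 2.13, 2.64 and 2.45 in naive arrays.

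In wild-type mPFC the same lists had medians of 1.81 for AP-1 factors and 0.84 for the Egr, Klf and Nr4a genes. The effect of stress in TLR-DKO mPFC was below that in wild-type mPFC for 9 of 10 and 13 of 18 members, with median differences of -1.16 and -0.72, beside -0.25 over all measured genes, of which 61.7% were lower. No gene passed the test of this difference (0 of 24738 genes, 0%, smallest adjusted p 0.495). Klf4, an early gene of endothelium and myeloid cells, had levels of 1.70, 1.83 and 3.00 in R-SDS arrays of TLR-DKO mPFC, against 1.07, 2.15, 2.59 and 0.99 in naive arrays. Its mean in wild-type mPFC was 3.39 ± 1.22 in R-SDS arrays and 0.21 ± 0.71 in naive arrays (SD, n = 3 each). The Klf4 effects differed by -2.70 ± 1.17 with an adjusted p of 0.81. Hilpda, a lipid droplet protein of hypoxic cells, had a mean of 0.43 in R-SDS arrays and -2.41 in naive arrays of TLR-DKO mPFC, where the 4 naive arrays ran from -6.11 to 2.81; its difference of 2.84 was 1.60 without naive replicate 1 and 4.58 without naive replicate 4. In wild-type mPFC its means were 2.62 and -6.10.

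The glucocorticoid receptor and its targets lay above 0 in 15 of 25 measured members of 28, beside 44.6% of measured genes. The median was 0.25, or 0.22 without naive replicate 1. It was 0.22 within the first slide and -0.03 within the second. In wild-type mPFC the median was 0.61. Hif3a, a hypoxia-inducible factor subunit that glucocorticoids raise in many tissues, had levels of -0.93, 0.78 and -0.37 in R-SDS arrays, against -1.64, -1.77, -2.11 and -1.73 in naive arrays (difference 1.64 ± 0.48; adjusted p = 0.772). Its other probes differed by 3.04 and 0.01. Ddit4, an inhibitor of mTOR complex 1, had 7.24, 6.70 and 5.66 in R-SDS arrays, against 6.28, 4.69, 3.86 and 5.34 in naive arrays (difference 1.49 ± 0.58), and overlapped. Nfkbia, the inhibitor of NF-kappaB, differed by 1.56 ± 0.70 (0.81 without naive replicate 4) and Dusp1, a phosphatase of MAP kinases, by 0.78 ± 0.52. Tsc22d3, or GILZ, stood at 6.22, 5.81 and 4.16 in R-SDS arrays, against 5.34, 4.42, 4.36 and 4.78 in naive arrays. Its difference was 0.67, but -0.36 within the second slide. Fkbp5, the receptor co-chaperone, differed by -0.07 ± 0.46, Sgk1 by 0.34 ± 0.48 and Per1, a clock gene, by -0.01 ± 0.69.

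**Figure D5:**
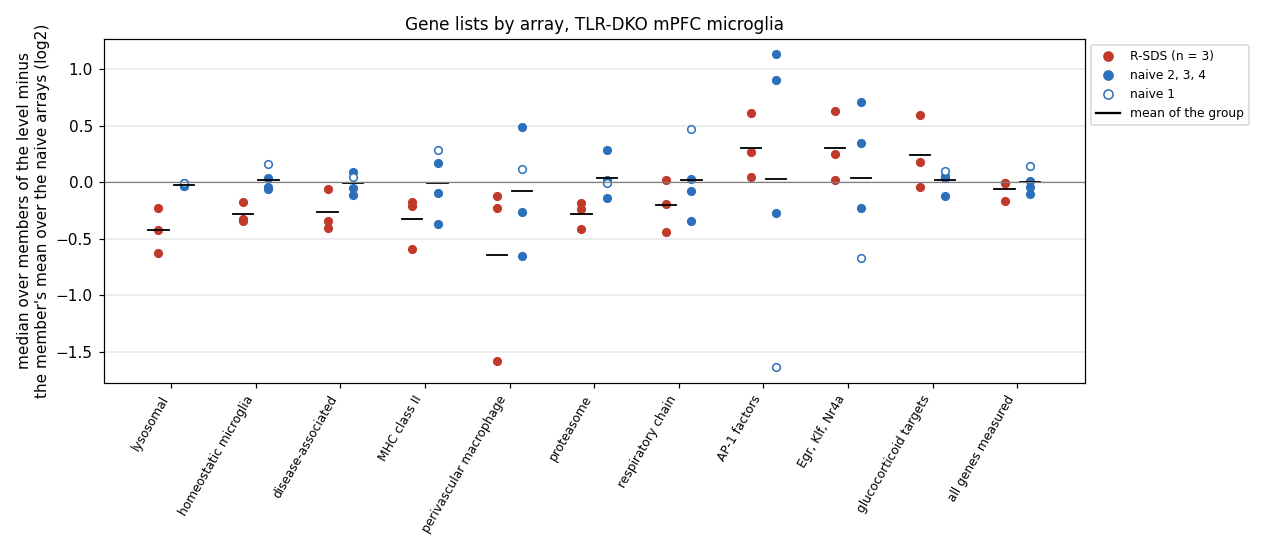
For 10 gene lists and all measured genes, the median over members of the level minus the member's mean over the 4 naive arrays (log2), so that naive arrays lie around 0 by construction; red points are the 3 R-SDS arrays, blue points naive replicates 2, 3 and 4, open points naive replicate 1, and bars group means. Lysosomal genes lie at -0.62, -0.23 and -0.42 on the R-SDS arrays, and naive replicate 1 lies at -1.64 for AP-1 factors.

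Cytokines and the Toll-like receptor pathway overlapped between the groups. Il1b, the main inflammatory interleukin, had levels of 1.00, 2.77 and 3.62 in R-SDS arrays, against -1.92, 3.61, 3.37 and 2.70 in naive arrays. Il1a had 1.52, 2.44 and 4.11 in R-SDS arrays, against 1.44, 3.35, 3.87 and 2.61, and Tnf had 1.24, 2.20 and 3.88, against -1.32, 3.58, 3.02 and 1.83. Their differences were 0.52 ± 1.09, -0.13 ± 0.84 and 0.66 ± 1.02, and without naive replicate 1 they were -0.76, -0.59 and -0.37. The Il1b and Tnf differences above 0 thus rest on that array, and at -0.05 and -0.06 they also turned without R-SDS replicate 3. In wild-type mPFC the Il1a difference was 2.16, and the 2 effects differed by -2.29 with an adjusted p of 0.819. The Toll-like receptor and signalling list had 13 of 25 measured members (of 29) above 0 and a median of 0.05, or 14 and 0.15 without naive replicate 1. Tlr1 and Tlr6, the partners of Tlr2, differed by 1.45 ± 0.69 and 2.19 ± 0.96, and Ly96, the partner of Tlr4 also called MD-2, by 1.58 ± 0.72. Tlr1 had separate arrays, at 1.07, 1.08 and 0.91 in R-SDS arrays against 0.16, 0.64, -2.43 and -0.08 in naive arrays. The Tlr1 difference was 0.78 without naive replicate 3, and the Tlr6 difference 1.37 without naive replicate 4 and 1.46 without R-SDS replicate 2. Cd180, a relative of Tlr4, had separate arrays in the other direction, with a difference of -0.91 ± 0.54. Casp1, the inflammasome protease, differed by 2.44 ± 0.84, or 1.81 without naive replicate 1.

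Genes of protein breakdown and energy supply had small differences. In the proteasome list, 27 of 40 measured members (of 41) lay below 0 with a median of -0.24, or 32 of 40 and -0.24 without naive replicate 1, beside 55.4% and 51.3% of all measured genes; Psmb8, an immunoproteasome subunit, had levels of 2.62, 1.32 and 2.29 in R-SDS arrays, against 3.09, 3.34, 3.68 and 3.90 in naive arrays. Psmb6, the constitutive counterpart of another immunoproteasome subunit, differed by -1.34 ± 0.53, or -0.89 without R-SDS replicate 2. Respiratory chain and ATP synthase genes had 50 of 74 measured members (of 75) below 0 with a median of -0.19, but 40 of 74 with a median of -0.03 without naive replicate 1. Atp5a1, the alpha subunit of ATP synthase, had 5.45, 4.88 and 5.91 in R-SDS arrays, against 5.74, 6.45, 6.41 and 6.12 in naive arrays. Cytosolic ribosomal proteins had 51 of 77 below 0 with a median of -0.13, but 41 of 77 with a median of -0.03 without naive replicate 1. Of these ribosomal genes, 90.9% belong to the 2256 brightest measured genes, of which 62.3% lay below 0. Without that array, the shares of both lists below 0, 54.1% and 53.2%, lay near the 51.3% of all measured genes. Mitochondrial ribosomal proteins were mixed, with 37 of 72 above 0; Mrpl35 and Mrpl58 stood high, while Mrpl42 and Mrpl11 differed by -1.89 and -2.12. Pgk1, a glycolytic enzyme, differed by -1.75 ± 0.62, with overlapping arrays.

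Set against TLR-DKO NAc, 1 gene passed the test of the difference between the 2 stress effects (0.00404% of genes, adjusted p = 0.0128). It was Oaz3, an antizyme of polyamine metabolism known from testis. In TLR-DKO mPFC, Oaz3 was well above background on 0 of 3 R-SDS arrays and 1 of 4 naive arrays. In TLR-DKO NAc it was well above background on 4 of 4 R-SDS arrays and 0 of 3 naive arrays, and it was tested through those 4 arrays. The fitted difference of -4.08 therefore rests on values mostly within background in 3 of the 4 groups, and no size is read from it.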

How the data were processed

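Each sample was amplified RNA of sorted EGFP-positive cells on a single-colour (Cy3) Agilent mouse array. Intensity values were those deposited in the scanner files, written by Agilent Feature Extraction (version 11.0.1.1, per the file headers and the submitters' processing notes), which gives a processed signal per spot after background subtraction. The authors also deposited log2 values per probe for 55821 probes; the labels state neither scale nor centring. Set against the scanner values they correlated at r = 1 and differed by a median of at most 0.0619 on an array, and their column medians ran from -2.90 to -2.21. They served as an alternative.

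From 62976 spots per array, the 59305 that were not controls gave 55681 probes after averaging spots of a probe. Of these, 108 were left out for outlier flags, and 0 spots were saturated. The log2 processed signal minus the 75th percentile of the array was fitted with limma 3.58.1 (lmFit and eBayes, R 4.3.3) on all 26 arrays as 8 group means, two-sided, with Benjamini-Hochberg adjustment. A gene took its probe with the highest mean and was tested if a probe was well above background on 3 arrays of any group. Gene names came from RefSeq for 28026 of 29796 probes with a RefSeq-style accession, and otherwise from the array design. The number of arrays limits the precision.

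The samples of a group are pools of mice, and 2 independent experiments with different mice are described without saying which sample belongs to which; p-values measure the spread between these samples.

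The members and gene lists were chosen with earlier results of these data known. Genes are named by these rules: the 12 higher and 12 lower with the smallest p among RefSeq-named measured genes with separate arrays; the 5 higher and 5 lower with the largest difference among such genes detected on all 7 arrays; up to 4 members of each list with the smallest p; and fixed genes of microglia, Toll-like receptors, early genes and glucocorticoid targets. Alternatives changed the normalization, background correction, filter, probe rule, slide, arrays fitted, variance estimate, array weights and replicate number, or left out each array. Normexp used the median spot signal, a choice made after seeing the data, as was leaving out naive replicate 1 from list counts.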

Additional observations from a re-analysis of the deposited data

Results flagged for a closer look

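In 9 genes and 2 gene lists, 1 of the 4 naive arrays lay further from the others than Dixon's 95% limit allows. This was looked for in 103 genes and 46 lists, counting the median of all measured genes as a list, and chance marks about 1 in 20 groups. Naive replicate 1 was the outlying array for Il1b at -1.92, Kdm6b at -2.54, Casp1 at -2.89, Alg11 at -1.53 and Nr4a1, an early gene receptor, at 1.70, each of them the lowest naive level. For P2ry12 the same array, at 5.86, was the highest naive level.

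Naive replicate 4 was the outlying array for Ahcyl1 at 1.64, Ifnar1 at 2.09 and Cd180 at 3.29, each of them the highest naive level. Among lists, the NADPH oxidase and antioxidant list stood at -0.22 on naive replicate 4 and the TGF-beta signalling list at -0.31 on naive replicate 1, as medians over members relative to the mean of the naive arrays.

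Oaz3 was marked because its stress effect in TLR-DKO mPFC differed by -4.08 from that in TLR-DKO NAc, a value that rests on levels mostly within background in 3 of the 4 groups.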

How the results depend on the processing

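The count of 0 genes past an adjusted p of 0.05 held in each alternative normalization, background correction, filter, probe rule, variance estimate and block. At an unadjusted p under 0.05 these alternatives counted 1115 to 1679 genes, against 1255 in the main fit. The adjusted count was 1 gene with only the 7 arrays fitted (Noct, within background on every naive array). It was 4 with the 13 mPFC arrays (Mrpl35, Dcaf17, Praf2 and an unnamed noncoding probe) and 2 with array weights (Gpcpd1 and Fpgt). Array weights also gave 2479 genes at an unadjusted p under 0.05. Leaving out each array in turn gave 0 to 2 genes (Nadk2 and Mrap2 without naive replicate 2) and 964 to 1486 at an unadjusted p. The comparison of the stress effect with wild-type mPFC gave 0 genes, and 1 with array weights (Fpgt). That with TLR-DKO NAc gave 1 gene, but 0 with normexp, with normexp and quantile normalization, and with either stricter filter, under which Oaz3 was not tested, and 0 to 2 without 1 array (0 without R-SDS replicate 2 or 3). Centring on the median gave 430 higher and 1123 lower genes at an unadjusted p, against 584 and 671, and moved the median of all genes to -0.18, against -0.05.

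Same-numbered arrays correlated at 0.117, -0.0818 and 0.102 in their deviations from the group means, and other pairs of arrays at -0.250 to 0.149. So few arrays cannot show whether the replicate numbers pair the samples. With replicate number as a block, 0 genes passed the adjusted threshold and 1469 the unadjusted one, and the differences of Il1a and Per1 turned to 0.12 and 0.11.

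Other differences turned in sign, and the cause was not tested. Most were within 1 SE of 0, but Dab2, at -1.81, and Ctsa, at -0.63, were not. P2ry12, Il1a, Fkbp5 and Per1 were at 0.051, 0.084, 0.16 and 0.19 with quantile normalization, and at 0.048, 0.042, 0.18 and 0.17 with normexp added. Egr1, at 0.024, was at -0.10 with median centring and -0.026 with normexp. Ctsa was at 0.32 as a mean of its probes. With slide as a block, Il1a, Fkbp5, Sgk1 and Per1 were at 0.46, 0.20, -0.12 and 0.50. With array weights, P2ry12, Il1b, Tnf, Egr1 and Nr4a1 were at 0.0035, -0.70, -0.36, -0.13 and -0.29. Leaving out each array gave P2ry12 -0.28 to 0.070, Il1a -0.84 to 0.46, Il1b -0.76 to 1.26, Tnf -0.37 to 1.26, Egr1 -0.31 to 0.33, Nr4a1 -0.32 to 0.91, Fkbp5 -0.23 to 0.10, Per1 -0.35 to 0.44, Dab2 -2.79 to 0.13, Tlr2 -0.25 to 0.050 and Tlr4 -0.72 to 0.015. Of all recomputed values of single genes and lists, 3354 were counted as the same and 137 as moved. Among fits of single genes, 6 passed the adjusted threshold and 44 turned in sign. List medians, and genes within 1 slide, were counted as the same if they moved by less than the SD between replicates, whatever their sign. Their changes of sign, such as that of the AP-1 median without naive replicate 1, are not among the 44. Signal near background limits the differences of dim genes, which are then bounds.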

Other observations

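Summed over members on the linear scale, 6 pathway lists and 1 list of cell markers lay lower in every R-SDS array than in every naive array. The sums overlapped for 29 pathway lists and 9 marker lists, and 0 lists lay higher. Of the 2256 brightest measured genes, 7.98% lay lower in every R-SDS array and 0.80% higher. Beside the lysosomal and perivascular macrophage lists described above, hypoxia and glycolysis genes summed to 309 to 347 times the 75th percentile in R-SDS arrays, against 408 to 491 in naive arrays. The median difference of the hypoxia and glycolysis list was -0.25, but 0.52 within the first slide and -0.50 within the second. Cholesterol genes summed to 148 to 179 in R-SDS arrays, against 226 to 330 in naive arrays, with Apoe among them. Purinergic receptors and ectonucleotidases, which sense and clear extracellular nucleotides, summed to 213 to 232 in R-SDS arrays and to 246 to 346 in naive arrays. Cytokine receptors and SOCS feedback genes summed to 1351 to 1545 in R-SDS arrays and to 1565 to 1693 in naive arrays. The proteasome sums were 754 to 856 in R-SDS arrays and 863 to 1076 in naive arrays. Lists share members, and bright members carry the sums.

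Prdx6, a peroxiredoxin, had levels of 0.53, -1.01 and 1.77 in R-SDS arrays, against 3.73, 2.20, 2.91 and 2.20 in naive arrays, while its other probes differed by -0.13 and 0.28. Cybb, the catalytic subunit of the phagocyte NADPH oxidase, had -2.78, 0.22 and -2.79 in R-SDS arrays, against 1.34, -1.20, 1.12 and 2.44 in naive arrays, and the groups overlapped. Ccr2, a chemokine receptor of monocytes, was well above background on 0 of 3 R-SDS arrays and 3 of 4 naive arrays, at least 2.49-fold lower in R-SDS arrays (adjusted p = 0.919). Of astrocyte genes, Slc1a2, a glutamate transporter, differed by 3.92 and Gfap, a filament protein, by -2.10, with overlapping arrays for both.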
